A study of Mus musculus with 8 samples.

Results

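The mitochondrial ribosomal protein genes are the protein-coding genes of the nuclear genome whose symbols are Mrpl or Mrps followed by a number and at most 1 letter. The deposited table held 78 of them among 52636 gene identifiers, 49 named for the large subunit (Mrpl) and 29 for the small subunit (Mrps). Of these, 77 were expressed highly enough to be tested, 48 large and 29 small, among 18321 tested genes. The remaining gene, Mrpl53 (chr6:83109040-83109939, + strand, GRCm38), had no count in any library, which allows at most 0.0417 to 0.0903 CPM there (counts per 1000000 counts of the library), taking 3 counts as the limit. In the GENCODE annotation 695 of the 790 exonic bases of Mrpl53 are shared with a longer gene on the same strand, Gm42688.

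The mitochondrial ribosome is the machine inside mitochondria that translates the few proteins encoded by mitochondrial DNA, all of them subunits of the respiratory chain and of ATP synthase. Its RNAs come from mitochondrial DNA, while every one of its proteins is encoded in the nucleus, made in the cytosol and imported. The small subunit reads the messenger RNA, the large subunit joins amino acids and feeds the new chain towards the inner membrane, and both carry proteins inherited from the bacterial ribosome beside proteins added in mitochondria.

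RNA was sequenced from epiblasts, the layer of the early post-implantation mouse embryo that gives rise to the body, at embryonic day 5.5. All embryos carried Sox2Cre, a Cre recombinase driven in the epiblast by the Sox2 promoter, and the CRAFR26 construct, through which 4-hydroxytamoxifen (4OHT) switches on the kinase ERK. The 4 groups were clone 4 and clone 8 of the line, each in ethanol vehicle or in 250 nM 4OHT for 4 h in IVC2 medium, with 2 libraries per group. The question of the series is how gene expression responds to ERK in the epiblast. Among the libraries analysed here none lacked the construct or Cre, so an effect of 4OHT itself cannot be told apart from that of ERK. The vehicle libraries carry 0 h in their titles and 4 h of vehicle in their treatment labels, so the length of their culture is not certain. The mouse line was made by injecting targeted embryonic stem cells into morulas, and the 2 clones are called biological clones in the series' design. Extraembryonic tissue was dissected away, and 7 ng of RNA from a tube of 10 epiblasts went into each library. No label says whether the 2 libraries of a group came from separate litters, so the p-values measure the spread between these libraries, which may be technical.

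Library totals ran from 33.3 M to 38.0 M counts with vehicle and from 56.4 M to 72.5 M with 4OHT (M, 1000000 counts). Each 4OHT library thus had a higher total than each vehicle library, so sequencing depth went along with treatment. All 12 epiblast markers were detected in every library, at very different levels: Dnmt3b at no less than 2410 CPM and Pou5f1, which encodes OCT4, at no less than 435 CPM, but Sox2, whose promoter drives the Cre, at 10.1 to 32.7 CPM. Sox2 stood at 15.1 and 15.4 CPM in vehicle clone 4, 11.2 and 10.1 in 4OHT clone 4, 32.7 and 30.2 in vehicle clone 8, and 19.8 and 16.7 in 4OHT clone 8, so for this gene both clone 8 groups lay above both clone 4 groups. The 12 markers did not share this: with vehicle 6 were higher and 6 lower in clone 8 than in clone 4. With 4OHT 5 were higher and 7 lower, and the median log2 differences were 0.03 and -0.04. The summed level of the 12 was 6660 and 7030 CPM in vehicle clone 4, 6400 and 5980 in 4OHT clone 4, 6610 and 6720 in vehicle clone 8, and 5840 and 5760 in 4OHT clone 8. Markers of the neighbouring tissues were also present, with no gene of either list at 0 in any library. The 18 visceral endoderm markers summed to 652 to 1030 CPM in vehicle clone 4, 2960 to 3320 in 4OHT clone 4, 2130 in both libraries of vehicle clone 8, and 597 to 1490 in 4OHT clone 8. The 15 extraembryonic ectoderm markers summed to 977 to 1390, 1330 to 1410, 547 to 603, and 1200 to 1370 CPM in the same order. In clone 8, 6 of 18 endoderm markers and 4 of 12 epiblast markers fell with 4OHT and 11 of 15 ectoderm markers rose; in clone 4 no marker of the 3 lists passed the test (edgeR), although all 18 endoderm markers had positive values, 16 of them at an unadjusted p under 0.05. Over all tested genes 8.60% fell and 8.00% rose in clone 8 by the same test. In clone 4, 0.00% fell and 0.0382% rose, and 9.90% had an unadjusted p under 0.05. The part of these tissues in the results below was not tested. In such pools, fewer cells of a type and less RNA per cell cannot be told apart.

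Some promoters of the members are shown first, for motifs that were not used in choosing the members of the group. NRF1, the ETS factor GABPA and YY1 are transcription factors known to bind upstream of nuclear genes for mitochondria. Their core motifs were searched on both strands of RefSeq promoters (GRCm38.p6, 250 bases before to 50 after a start), as GCATGCGC for NRF1, CCGGAAG for ETS/GABPA and AAGATGGC for YY1; none of the 3 contains another. The table held 75 promoters of 69 of the 78 members. The ETS/GABPA motif was present in 34.7% of these promoters, against 8.86% of all 32851 promoters and 15.4% of the 15782 promoters of tested genes. The YY1 motif was present in 16.0% of member promoters, against 2.75% and 3.83%, and the NRF1 motif in 10.7%, against 2.71% and 4.64%. At least 1 of the 3 was found in 50.7% of member promoters, against 13.3% and 21.9%. Printed below are the last 120 bases before the start for 5 members whose stretch overlaps no annotated exon. Mrpl52, Mrpl34 and Mrpl58 fell in clone 8 and hold an ETS/GABPA match, Mrps14 also fell, and Mrps2 is the single member with a positive change there. Mrpl52 and Mrpl58 were picked for a large called change together with a match, and Mrpl34 and Mrps14 for a low p in the difference between clones. Mrpl48 met the same rule as Mrpl52, with a match before a start and none before another, and is not printed. A link between motif and change cannot be read from this choice. Capitals mark matches to the ETS/GABPA motif, CCGGAAG or its reverse complement CTTCCGG, and each stretch reads 5′ to 3′ on the strand of the gene.
Mrpl52 (chr14:54426789-54426908, +): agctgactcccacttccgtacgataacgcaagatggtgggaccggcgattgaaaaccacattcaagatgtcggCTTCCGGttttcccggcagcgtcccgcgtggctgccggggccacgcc
Mrpl34 (chr8:71464806-71464925, +): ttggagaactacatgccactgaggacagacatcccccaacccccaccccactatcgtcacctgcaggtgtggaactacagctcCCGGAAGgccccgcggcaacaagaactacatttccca
Mrpl58 (chr11:115403632-115403751, +): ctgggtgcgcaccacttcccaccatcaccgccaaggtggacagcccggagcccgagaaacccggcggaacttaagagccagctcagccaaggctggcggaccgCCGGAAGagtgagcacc
Mrps14 (chr1:160195095-160195214, +): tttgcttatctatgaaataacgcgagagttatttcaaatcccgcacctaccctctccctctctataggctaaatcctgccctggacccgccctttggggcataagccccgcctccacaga
Mrps2 (chr2:28467946-28468065, +): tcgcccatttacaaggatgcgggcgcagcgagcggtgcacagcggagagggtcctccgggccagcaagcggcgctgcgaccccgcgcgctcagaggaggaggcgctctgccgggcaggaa
The stretches of Mrps14 and Mrps2 hold none of the 3 motifs, which says only that these letters are not in this window.

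Members were well expressed. Their mean level over the 8 libraries ran from 25.7 CPM (Mrpl33) to 334 CPM (Mrpl42), with a median of 100 CPM against 7.63 CPM over all tested genes. Per kilobase of the principal transcript, large subunit genes ran from 12.9 to 501 CPM with a median of 68.3, and small subunit genes from 16.3 to 153 with a median of 63.5. The highest large subunit genes per kilobase were Mrpl42 at 501, Mrpl20 at 314 and Mrpl28 at 309 CPM per kilobase, and the lowest were Mrpl48 at 12.9, Mrpl17 at 20.5 and Mrpl47 at 20.8. Of the small subunit, Mrps24 at 153, Mrps12 at 148 and Mrps21 at 136 CPM per kilobase were highest, and Mrps35 at 16.3, Mrps25 at 17.6 and Mrps26 at 23.0 were lowest. This order rests on the transcript length used: with all annotated exons as the length, 1 of the 3 highest and 1 of the 3 lowest large subunit genes were the same, and 2 and 1 of the small subunit genes. Replicates of a group lay close together for these genes. The median absolute log2 difference between the 2 libraries of a group was 0.09 in vehicle clone 4, 0.10 in 4OHT clone 4, 0.14 in vehicle clone 8 and 0.18 in 4OHT clone 8, where all tested genes gave 0.23, 0.24, 0.30 and 0.34. The 2 sets were not matched for level, and members have the higher median level given above.

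Summed over its members, the group took 0.866% and 0.899% of all counts in vehicle clone 4 and 0.845% and 0.837% in 4OHT clone 4. In clone 8 it took 1.05% and 1.01% with vehicle and 0.873% and 0.742% with 4OHT. The widest 95% Wilson interval of a share, for counting error only, ran from 1.047% to 1.054%. The clone 8 vehicle libraries thus held the largest shares of the 8 and the 2nd clone 8 4OHT library the smallest, while the clone 4 libraries lay between them.

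On the CPM scale the summed level was 9020 ± 320 in vehicle clone 4 and 8490 ± 82 in 4OHT clone 4 (SD, n = 2), a change of -5.9%. In clone 8 it was 10600 ± 629 with vehicle and 7610 ± 711 with 4OHT (SD, n = 2), a change of -28.2%. With 2 libraries against 2, the groups did not overlap in either clone, and no permutation of so few libraries could pass 0.05.

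The balance of the subunits varied little. Counts of the large subunit were 2.174 and 2.256 times those of the small subunit in vehicle clone 4, 2.144 and 2.189 times in 4OHT clone 4, 2.297 and 2.206 times in vehicle clone 8, and 2.17 ± 0.0262 times (SD, n = 2) in 4OHT clone 8. The ratio overlapped between conditions in clone 4 and was lower with 4OHT in both libraries of clone 8, where the vehicle mean was 2.25 ± 0.0643 (SD, n = 2).

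**Figure D1:**
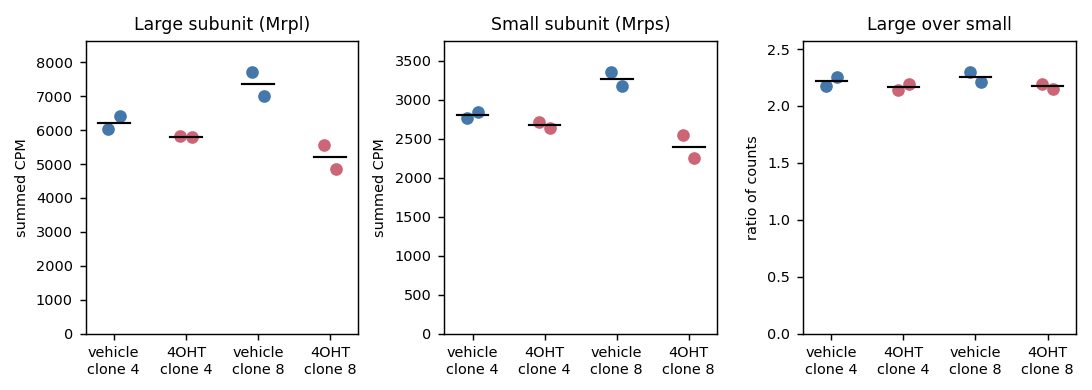
Summed CPM of the large subunit genes (left) and small subunit genes (middle) and the ratio of their counts (right) in each of the 8 libraries; points are libraries, bars are means of the 2 libraries of a group. The sums are highest in vehicle clone 8 and lowest in 4OHT clone 8, and the ratio stays between 2.144 and 2.297.

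In clone 4, no member passed the test of 4OHT against vehicle (edgeR quasi-likelihood, adjusted p under 0.05), higher or lower. Over all 18321 tested genes 0.0382% were called higher and 0.00% lower in this clone. The median log2 fold change of members was -0.08, against -0.005 over all tested genes, and 58 of 77 members had a negative value. At an unadjusted p under 0.05 there were 5 members, against 9.90% of all genes, and DESeq2 also called 0. The 3 members with the lowest p belong to the large subunit. Mrpl52, a protein added in mitochondria, stood at 71.9 and 67.9 CPM with vehicle and 55.6 and 46.9 CPM with 4OHT, with a log2 fold change of -0.45 (SE 0.14; edgeR, adjusted p = 0.290). Mrpl9, the counterpart of a bacterial protein, stood at 107 and 104 CPM with vehicle and 84.2 and 81.2 CPM with 4OHT (log2 fold change -0.35, adjusted p = 0.418). Mrpl12, the stalk protein that also binds the mitochondrial RNA polymerase, stood at 200 and 220 CPM with vehicle and 168 and 153 CPM with 4OHT (log2 fold change -0.39, adjusted p = 0.427). For all 3 genes both 4OHT libraries lay below both vehicle libraries of the clone, which was so for 39 of 77 members and 23.8% of all tested genes.

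In clone 8, 47 of the 77 tested members fell with 4OHT and none rose, where 8.60% of all tested genes were called lower and 8.00% higher. The median log2 fold change of members was -0.48, against 0.07 over all tested genes. A negative value was found for 76 of 77 members, against 46.3% of all genes. The changes were of moderate size: the lowest was -0.96 and no member changed by as much as a halving on the fitted scale. Both 4OHT libraries lay below both vehicle libraries for 76 members, against 28.3% of all genes. An unadjusted p under 0.05 was found for 67 members, against 33.2% of all genes. DESeq2 called 59 members lower and 0 higher, where it called 12.2% of all tested genes lower.

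These calls depend on single libraries. Without the 1st vehicle library of clone 8 no gene of the genome was called in this clone, so each call in clone 8 given here for a member or another gene is lost there, although all 77 then had negative values with a median of -0.46 and 54 an unadjusted p under 0.05. The lone library left in the group is assumed there to vary like the others. Without the 2nd 4OHT library of clone 8, fewer members and fewer of all tested genes were called lower. The members' median was then -0.41, against 0.05 over all tested genes. The 1st vehicle and the 2nd 4OHT library of clone 8 also hold the largest and the smallest share of counts from these genes. They were chosen after the data were seen. Without both, no member stayed called, while some other tested genes were still called lower. The values of 77 of 77 members were negative, with a median of -0.37 against 0.005 over all tested genes. Leaving out any 1 clone 4 library changes the estimate of the spread and also the genes tested and the scaling. Fewer members and fewer of all tested genes were then called lower, with member medians from -0.51 to -0.49. A fit of the clone 8 libraries alone called no gene lower, members included.

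**Figure D2:**
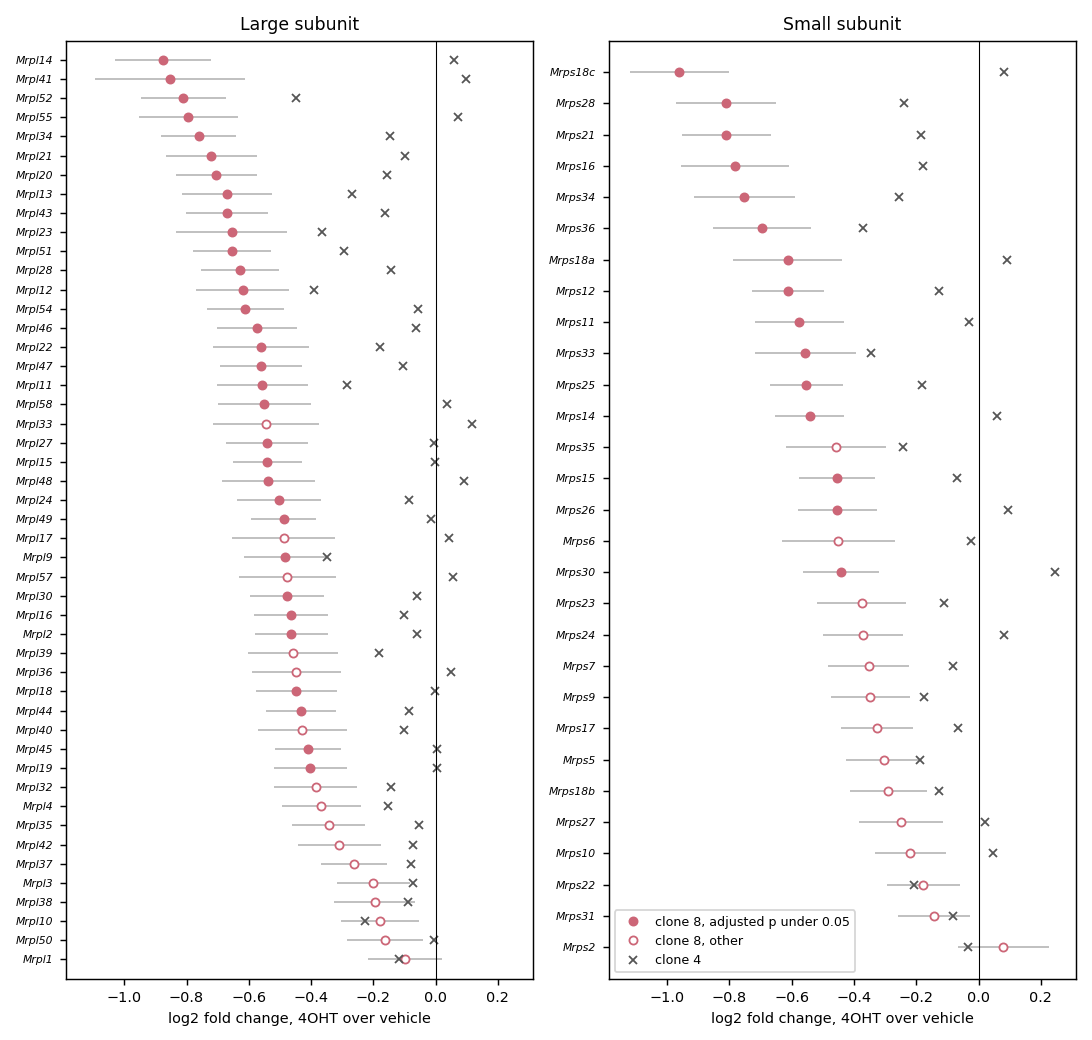
Log2 fold change of each tested member, 4OHT over vehicle, with large subunit genes left and small subunit genes right; circles are clone 8 with bars of 1 SE (filled at an adjusted p under 0.05), crosses are clone 4. All clone 8 values except that of Mrps2 are negative, and the clone 4 values lie between -0.45 and 0.25.

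By subunit, 32 of 48 large and 15 of 29 small subunit genes fell in clone 8, with medians of -0.50 and -0.45. The difference of these medians was -0.04, and it was not tested. In clone 4 the medians were -0.08 and -0.08. By origin the counts were as follows. Among members numbered as counterparts of bacterial proteins (Mrpl up to 36, Mrps up to 21), 27 of 44 fell with a median of -0.48, and among those with higher numbers 20 of 33 fell, with a median of -0.48. The number is only a guide, since Mrps24, Mrps28 and Mrpl47 have high numbers and bacterial counterparts.

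The 5 members with the largest called changes in clone 8 include 3 of the small and 2 of the large subunit. Mrps18c (chr5:100798627-100804471, + strand) is 1 of 3 mammalian relatives of a bacterial small subunit protein. It stood at 67.9 and 56.8 CPM with vehicle and 34.9 and 29.2 CPM with 4OHT in clone 8, or -0.96 as log2 fold change (SE 0.16; edgeR, adjusted p = 0.0102). In clone 4 it stood at 37.3 and 34.8 CPM with vehicle and 39.1 and 37.1 CPM with 4OHT. The 2 clone 8 vehicle libraries were thus the ones that stood apart, above the other 6, and the clone 4 conditions overlapped. In the annotation 250 of its 1076 exonic bases are shared with Gm43511 on the same strand.

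Mrpl14 (chr17:45686322-45698495, + strand) lies at the face of the large subunit that meets the small one. It stood at 43.6 and 40.0 CPM with vehicle and 24.0 and 21.6 CPM with 4OHT in clone 8 (log2 fold change -0.87, SE 0.15, adjusted p = 0.0113). In clone 4 it stood at 27.6 and 30.9 CPM with vehicle and 30.1 and 30.9 CPM with 4OHT, so the conditions overlapped there. Mrpl41 (chr2:24974117-24975098, - strand), a mitochondrial addition, stood at 63.0 and 67.4 CPM with vehicle and 46.6 and 25.5 CPM with 4OHT in clone 8 (log2 fold change -0.85, SE 0.24, adjusted p = 0.0408). The call was lost in 13 alternatives and kept in 9, and the value ran from -0.49 without the 2nd 4OHT library of clone 8 to -1.35 without the 1st. Its 2 4OHT libraries differed from each other by more than the first of them differed from vehicle, and its clone 4 values, 42.0 and 40.9 CPM with vehicle and 43.7 and 45.1 CPM with 4OHT, were close together.

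Mrps28 (chr3:8802146-8923918, - strand) stood at 161 and 116 CPM with vehicle and 77.2 and 81.1 CPM with 4OHT in clone 8 (log2 fold change -0.81, SE 0.16, adjusted p = 0.0145). In clone 4 it stood at 94.1 and 99.2 CPM with vehicle and 86.8 and 76.9 CPM with 4OHT. Mrps21 (chr3:95862634-95871519, - strand), a small subunit protein with a bacterial counterpart, stood at 99.6 and 80.6 CPM with vehicle and 51.2 and 51.6 CPM with 4OHT in clone 8 (log2 fold change -0.81, SE 0.14, adjusted p = 0.0113). In clone 4 it stood at 69.1 and 63.0 CPM with vehicle and 55.6 and 60.7 CPM with 4OHT. For Mrps28 and Mrps21 all 4 4OHT libraries lay below all 4 vehicle libraries. Mrpl34, a large subunit protein with a bacterial counterpart, had the lowest p of all members in clone 8 and was chosen for that after its values were seen: 190 and 170 CPM with vehicle and 113 and 99.4 CPM with 4OHT, or -0.76 as log2 fold change (SE 0.12, adjusted p = 0.00929). At an adjusted p under 0.01 it was the single member called.

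**Figure D3:**
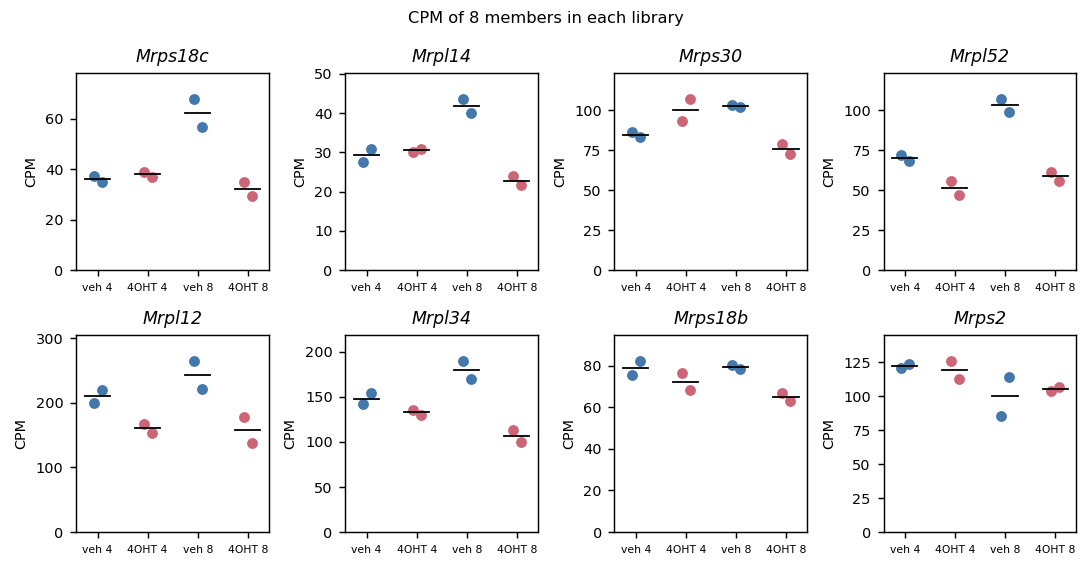
CPM of 8 members in each library, by group (veh, vehicle; 4 and 8, the clones); points are libraries and bars are means of 2. Mrps18c, Mrpl14, Mrpl52 and Mrpl34 are highest in vehicle clone 8, while Mrps2 has its lowest mean there.

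Other members with known special places were read by the rule for named genes. Mrpl12 fell in clone 8 (log2 fold change -0.62, SE 0.15, adjusted p = 0.0256), from 265 and 221 CPM to 178 and 138 CPM. Mrpl58, a peptidyl-tRNA hydrolase built into the large subunit that frees stalled ribosomes, fell from 120 and 112 CPM to 91.1 and 67.3 CPM (log2 fold change -0.55, SE 0.15, adjusted p = 0.0365), with -0.35 (adjusted p = 0.121) without the 2nd 4OHT library of clone 8. Mrps12, a protein of the decoding centre, fell from 155 and 158 CPM to 110 and 94.8 CPM (log2 fold change -0.61, SE 0.12, adjusted p = 0.0129). In each of the 3 both 4OHT libraries lay below both vehicle libraries.

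The 3 relatives Mrps18a, Mrps18b and Mrps18c sit in different places: structures put the product of Mrps18a in the large subunit and those of the other two in the small subunit. Mrps18a fell in clone 8 from 147 and 132 CPM to 109 and 73.6 CPM (log2 fold change -0.61, SE 0.17, adjusted p = 0.0427). The call was lost in 12 alternatives and kept in 10, and the value ran from -0.36 without the 2nd 4OHT library of clone 8 to -0.92 without the 1st. Mrps18b stood at 80.2 and 78.5 CPM with vehicle and 66.9 and 63.0 CPM with 4OHT (log2 fold change -0.29, SE 0.12, adjusted p = 0.139) and did not pass. Mrps30, also found in the large subunit in structures despite its symbol, fell in clone 8 from 103 and 102 CPM to 78.6 and 72.5 CPM (log2 fold change -0.44, SE 0.12, adjusted p = 0.0382). In clone 4 Mrps30 stood at 86.4 and 82.9 CPM with vehicle and 93.3 and 107 CPM with 4OHT, so that its 4OHT libraries lay above the vehicle libraries there. Of the members highest per kilobase, Mrpl20 (log2 fold change -0.70), Mrpl28 (-0.63), Mrps12 and Mrps21 fell in clone 8, while Mrpl42 (-0.31, adjusted p = 0.137) and Mrps24 (-0.37, adjusted p = 0.0799) did not pass. Of the lowest, Mrpl48 (-0.54), Mrpl47 (-0.56), Mrps25 (-0.55) and Mrps26 (-0.45) fell, while Mrpl17 (-0.49, adjusted p = 0.0733) and Mrps35 (-0.46, adjusted p = 0.0813) did not pass.

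At the other end stood 3 members with little change in clone 8, named after their values were seen. Mrps2 stood at 85.6 and 114 CPM with vehicle and 104 and 107 CPM with 4OHT (log2 fold change 0.08, SE 0.15, adjusted p = 0.742). Mrpl1, a stalk protein of the large subunit, gave -0.10 (SE 0.12, adjusted p = 0.611), and Mrps31 gave -0.14 (SE 0.12, adjusted p = 0.421). For Mrps2 the 4OHT libraries lay inside the range of the vehicle libraries.

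The size of the change varied with gene length within the group. Over the 77 members, the clone 8 log2 fold change had a Pearson correlation of 0.404 with log2 length of the principal transcript. It was 0.243 with log2 mean CPM and -0.246 with log2 GC content of the longest transcript. Over all tested genes these were 0.087, -0.109 and -0.107. The points share the same 4 libraries, and the values are descriptions. Members are short, with a median principal transcript of 1320 bases against 2640 bases over all tested genes. A correction took out the dependence of each library on the length of all annotated exons, not of the principal transcript, and on GC content. With it 46 members fell in clone 8, 35 of them among the 47, where 8.74% of all tested genes were called lower. The median of members was then -0.51 against -0.01 over all genes. By level, 16 of 26 members fell in the lowest of 3 bands (25.7 to 85.9 CPM), 16 of 25 in the middle band and 15 of 26 in the highest (128 to 334 CPM). Over all tested genes of any level 8.60% were called lower. All 77 members lay above the median level of tested genes, and a share at matching levels was not computed.

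By promoter motif, the 25 tested members with an ETS/GABPA match had a median clone 8 change of -0.55 and 17 of them fell, and the 43 without one had a median of -0.46 and 24 fell. With and without a YY1 match the medians were -0.38 (12 members) and -0.50 (56 members), and with and without an NRF1 match -0.47 (8 members) and -0.48 (60 members). The motif groups overlap widely in their changes, and a match is only a run of letters, not a bound site.

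The difference between the clones was tested directly, as the clone 8 response minus the clone 4 response. A single member passed, Mrps18c, with a difference of -1.04 on the log2 scale (SE 0.22, adjusted p = 0.0471, edgeR), and none passed in the other direction. Over all tested genes 1.75% were called lower and 1.08% higher. The next by p were Mrpl14 at -0.93 (SE 0.22, adjusted p = 0.0561) and Mrps30 at -0.69 (SE 0.17, adjusted p = 0.0678). Of all members, 73 of 77 had a negative difference, against 47.4% of all genes, and the median was -0.41 against 0.05. An unadjusted p under 0.05 was found for 36 members, against 22.7% of all genes, and DESeq2 called 11 lower and 0 higher. The call of Mrps18c was lost in 10 alternatives and kept in 10. The number called moved with the settings: with 1 library left out the number of members called ran from 0 to 7, and it was 0 with library totals in place of TMM scaling.

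The clones were also compared within each condition. In vehicle libraries, clone 8 had the higher value for 69 of 77 members, against 50.3% of all genes, with a median log2 difference of 0.23 against 0.004. Of these, 2 passed the test: Mrps18c at 0.79 (SE 0.16, adjusted p = 0.0264) and Mrpl52 at 0.56 (SE 0.14, adjusted p = 0.0410), where 4.06% of all genes were called higher and 4.31% lower; DESeq2 called 15 higher. In 4OHT libraries, clone 8 had the lower value for 68 of 77 members, against 48.4% of all genes, with a median of -0.17 against 0.02, and no member passed, where 0.0600% of all genes were called higher and 0.142% lower. There 11 members had an unadjusted p under 0.05, and DESeq2 called 1 lower. For 52 members both clone 8 vehicle libraries were the highest of the 8, against 15.4% of all genes, and for 35 members both clone 8 4OHT libraries were the lowest, against 8.09%. These contrasts share their libraries with the clone 8 response. In vehicle libraries, the endoderm marker sums were higher in clone 8 than in clone 4 and the ectoderm sums lower, as given above.

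**Figure D4:**
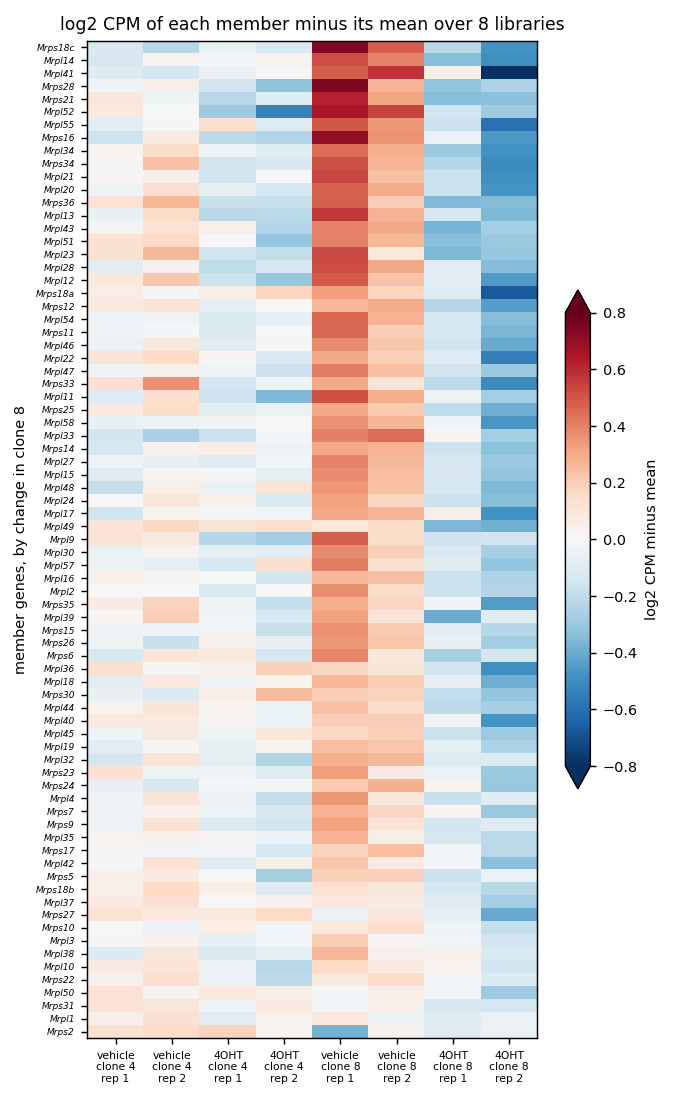
Log2 CPM of each tested member minus its mean over the 8 libraries, members ordered by their clone 8 change; colours end at -0.8 and 0.8. The 2 vehicle clone 8 columns are red for nearly all rows, Mrps2 at the bottom apart, and the 2 4OHT clone 8 columns mostly blue, while most cells of the 4 clone 4 columns are pale.

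With both clones in 1 fit that allows for the clone, no member passed, where 0.00546% of all genes were called higher and 0.00% lower. The median was -0.26 against 0.04 over all genes, 76 of 77 values were negative against 45.8% of all genes, and 36 members had an unadjusted p under 0.05 against 16.9%. DESeq2 called 14 members lower with the same design. The lowest p belonged to Mrpl52 (log2 fold change -0.63, SE 0.12, adjusted p = 0.115, edgeR), Mrpl12 (-0.50, SE 0.12, adjusted p = 0.126) and Mrpl51 (-0.47, SE 0.11, adjusted p = 0.127). Mrpl51, a mitochondrial addition, stood at 201 and 206 CPM (clone 4) and 244 and 222 CPM (clone 8) with vehicle, and at 184 and 148 CPM and 146 and 150 CPM with 4OHT. For 34 of 77 members, these 3 included, all 4 4OHT libraries lay below all 4 vehicle libraries, against 5.58% of all genes.

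Mitochondrial ribosomal proteins with other kinds of symbol were read beside the members. Of 5 such genes, 3 fell in clone 8: Chchd1 (log2 fold change -0.91, SE 0.15, adjusted p = 0.0101), Gadd45gip1 (-0.87, SE 0.17, adjusted p = 0.0130) and Aurkaip1 (-0.70, SE 0.15, adjusted p = 0.0178). Chchd1 stood at 169 and 136 CPM with vehicle and 90.2 and 72.3 CPM with 4OHT. Ptcd3, a pentatricopeptide protein of the small subunit, rose from 110 and 145 CPM to 204 and 183 CPM (log2 fold change 0.60, SE 0.14, adjusted p = 0.0226), with 0.40 (adjusted p = 0.161) without the 1st vehicle library of clone 8. Dap3, the GTP-binding protein of the small subunit, gave -0.27 (SE 0.11, adjusted p = 0.108). None of the 5 passed in clone 4. Over all tested genes 8.60% were called lower and 8.00% higher in clone 8.

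Factors that build the mitochondrial ribosome were read next. Of 28 assembly genes 2 fell in clone 8 (7.14%, against 8.60% of all tested genes) and none rose, with a median of -0.20. Mrm2, which methylates the large ribosomal RNA, fell from 44.2 and 43.6 CPM to 28.1 and 23.2 CPM (log2 fold change -0.77, SE 0.16, adjusted p = 0.0150). Malsu1, which binds the large subunit during its maturation, fell from 69.7 and 59.9 CPM to 46.9 and 34.3 CPM (log2 fold change -0.67, SE 0.18, adjusted p = 0.0326). Of 16 tested translation factors and partners 1 passed: Lrpprc, which stabilises mitochondrial messenger RNAs, rose (log2 fold change 0.56, SE 0.12, adjusted p = 0.0188), and the median was 0.17. Of 20 genes that charge mitochondrial transfer RNAs, Vars2, for valine, rose (0.78, SE 0.19, adjusted p = 0.0271), and 17 had positive values with a median of 0.16. A single gene of 16 or of 20 is no larger a share than the 8.00% of all tested genes called higher in clone 8. Whether these lists differ from the members was not tested.

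Among 12 genes that copy and transcribe mitochondrial DNA, Polg, the catalytic subunit of the DNA polymerase, rose in clone 8 from 33.6 and 42.4 CPM to 98.8 and 98.9 CPM (log2 fold change 1.38, SE 0.18, adjusted p = 0.0078). Ssbp1, the single-stranded DNA binding protein, fell (-0.45, SE 0.12, adjusted p = 0.0348), and the median of the list was 0.02. With 1 of 12 in each direction (8.33%), the list stood near the 8.60% of all tested genes called lower and the 8.00% called higher. In clone 4 Polg gave 0.91 (SE 0.18, adjusted p = 0.0979) and did not pass.

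Of 10 tested regulators of such genes, 4 rose and 1 fell in clone 8, where 8.00% of all tested genes were called higher and 8.60% lower. Yy1 fell from 62.9 and 59.5 CPM to 29.5 and 24.2 CPM (log2 fold change -1.19, SE 0.17, adjusted p = 0.0085). Its clone 4 libraries held 29.0 and 30.3 CPM with vehicle and 27.3 and 21.8 CPM with 4OHT, so that only the 2 clone 8 vehicle libraries were high. Gabpa rose (0.69, SE 0.14, adjusted p = 0.0168), as did its partner Gabpb1 (0.44, SE 0.13, adjusted p = 0.0494), Myc (0.89, SE 0.17, adjusted p = 0.0134) and the coactivator Pprc1 (0.86, SE 0.22, adjusted p = 0.0311). Nrf1 (0.09, SE 0.11, adjusted p = 0.575) and Esrra (-0.36, SE 0.26, adjusted p = 0.366) did not pass. The sign of Nrf1 turned to -0.13 under the correction for length and GC content, and Gabpa (0.48) and Gabpb1 (0.26) no longer passed there. Over all alternatives run, the call of Gabpb1 was lost in 15 and kept in 7, and those of Gabpa and Pprc1 were each lost in 7 and kept in 15. Pprc1 ran from 0.50 without the 1st vehicle library of clone 8 to 1.26 without the 2nd. None of the regulators passed in clone 4.

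Of the 13 genes for the proteins that the mitochondrial ribosome makes, 7 could be tested, and 5 of these rose in clone 8 with none falling: mt-Cytb (log2 fold change 1.74, SE 0.39, adjusted p = 0.0200), mt-Nd1 (1.54, SE 0.33), mt-Co1 (1.43, SE 0.32), mt-Nd5 (1.07, SE 0.25) and mt-Nd4 (1.02, SE 0.29). The other 6 genes had at most 0.0802 CPM in any library. Over all tested genes 8.00% were called higher in clone 8. Counts from mitochondrial DNA made up 0.470% and 0.619% of vehicle clone 8, 1.35% and 1.19% of 4OHT clone 8, and 0.205% to 0.417% of the clone 4 libraries. The 2 ribosomal RNAs did not pass in clone 8: mt-Rnr1 gave 0.19 (SE 0.26, adjusted p = 0.657) and mt-Rnr2 0.15 (SE 0.26, adjusted p = 0.731). In clone 4 none of the 9 tested mitochondrial genes passed. For mt-Cytb, the cytochrome b of the respiratory chain, the libraries held 1070 and 1470 CPM with vehicle and 4490 and 4020 CPM with 4OHT in clone 8, and 943 and 1480 CPM and 676 and 1760 CPM in clone 4, where the conditions overlapped. The responses of the clones differed for mt-Nd5 by 1.58 (SE 0.35, adjusted p = 0.0491), a call lost in 10 alternatives and kept in 11, while for mt-Nd1 (1.61, adjusted p = 0.0920) and mt-Cytb (1.73, adjusted p = 0.110) the difference did not pass.

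Of 82 genes for proteins of the cytosolic ribosome, 73 fell in clone 8 and none rose, against 8.60% and 8.00% of all tested genes. Their median was -0.79. The largest called changes were those of Rpl39l (-1.19), Rpl35a (-1.06) and Rpl34 (-1.05), genes with many near copies among which reads may be split. In clone 4 none passed (edgeR), with a median of -0.38 and 55 genes at an unadjusted p under 0.05. They took 10.3% and 8.47% of the counts in vehicle clone 8, 6.14% and 6.29% in 4OHT clone 8, 6.88% and 7.33% in vehicle clone 4, and 5.90% and 5.25% in 4OHT clone 4. In clone 8 the 2 families thus stood high in the same vehicle libraries. Whether their changes differ was not tested.

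**Figure D5:**
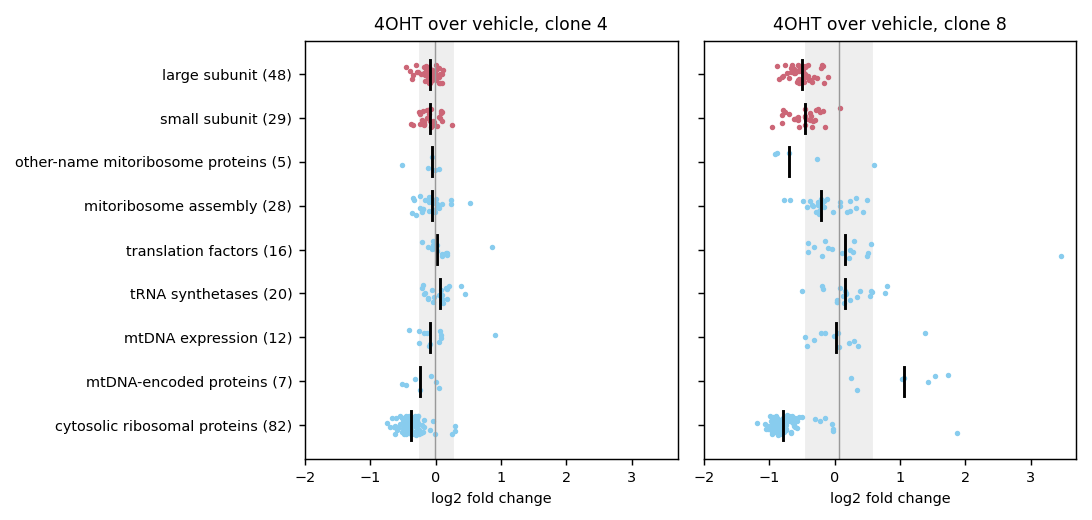
Log2 fold change of each tested gene, 4OHT over vehicle, by gene list in clone 4 (left) and clone 8 (right), with the number of tested genes in brackets; black bars are medians, the grey line is the median and the grey band the middle 50% of all tested genes. In clone 8 the medians run from -0.79 for cytosolic ribosomal proteins through -0.50 and -0.45 for the 2 mitochondrial subunits to 1.07 for proteins encoded in mitochondrial DNA.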

How the data were processed

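The authors deposited raw read counts per Ensembl gene, 1 column for each of 8 libraries; that they are not normalized was read from whole numbers with differing totals. Per the submitters' processing notes, bcl2fastq 2.19.1, STAR 2.5.3a and mm10 were used; which counter and annotation were used, and whether strand was, is not given in the sources used here. Overlapping genes, 33 members among them, are therefore uncertain. Symbols came from a table of gene names, which matched 52403 of 52636 identifiers. Coordinates and lengths came from GENCODE M21 (GRCm38, that is mm10).

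edgeR 4.0.16 in R 4.3.3 (filterByExpr over 4 groups with its minimum count of 10, TMM, glmQLFit and glmQLFTest) was fitted to all genes, with Benjamini-Hochberg adjustment over the 18321 tested and calls at an adjusted p under 0.05. The 4 groups shared 1 estimate of the spread; the fit of both clones had clone and treatment as terms. The SE is the log2 fold change divided by the square root of F, and CPM uses TMM-scaled totals. DESeq2 1.42.0 was an alternative. The share of all genes it called is given for clone 8 only, so its counts of members in other comparisons stand without that share. On simulated counts for clone 8, the fit recovered 28 of 97 genes changed by 1 on the log2 scale and 53 of 96 changed by 2, with 4 false calls among 17743 genes.

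Members and lists were chosen with earlier results of these data known. Values are given for the members with the largest called changes (up to 5 a direction, or the 3 lowest p where fewer than 3 were called), the 3 highest and lowest per kilobase in each subunit, 8 of known role, up to 3 called genes a direction from each other list, and mt-Rnr1, mt-Rnr2, Nrf1, Gabpa, Yy1 and Esrra. Outside this rule, and chosen after their values were seen, are Mrpl34, Mrpl1, Mrps31, Mrps2, Mrps14, Dap3, Gabpb1, mt-Nd5 and mt-Nd4. Gm42688 and Gm43511 are named only for their overlap. Dnmt3b, Pou5f1 and Sox2 are named only as examples of marker levels. Mtrfr and Mtres1 were listed but not matched.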

Additional observations from a re-analysis of the deposited data

Results flagged for a closer look

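Among the named members and the group's sums, 54 sets of the 4 libraries of a condition were examined for a single library far from the rest, and 6 were so, where chance gives about 1 in 20, or 2.7. In 4OHT libraries the 2nd library of clone 8 was far below the others for Mrpl17 (106 CPM), Mrpl41 (25.5 CPM), Mrpl58 (67.3 CPM) and Mrps24 (122 CPM). Also with 4OHT, the 1st library of clone 4 was far above the others for Mrpl51 (184 CPM), and with vehicle the 1st library of clone 8 was far above for Mrpl9 (138 CPM). Each of these sets joins both clones.

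The response to 4OHT differed between the clones by the test of the difference itself for 1 member, Mrps18c, at -1.04 on the log2 scale, and for mt-Nd5 at 1.58 in the other direction. A single member of 77 is no larger a share than the 1.75% of all tested genes called lower. The calls were lost in 10 alternatives and kept in 10 for Mrps18c, and lost in 10 and kept in 11 for mt-Nd5.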

How the results depend on the processing

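The direction in clone 8 held under each alternative run: 75 to 77 of 77 members had negative values. The number called did not hold, and the cause was not tested except where fewer libraries or genes entered. From 47 lower in clone 8, beside 8.60% of all tested genes, it went to 22 with library totals in place of TMM, beside 5.86%. It went to 1 at an adjusted p under 0.01, beside 0.851%, and to 0 in a fit of clone 8 alone, which called no gene lower. It was 24 without the members whose exons overlap another gene (45 tested), beside the same 8.60%. With counts thinned to the smallest library total the 47 stayed called, beside 9.35%. Without both the 1st vehicle and the 2nd 4OHT library of clone 8 no member stayed called, while some other genes did. Leaving out 1 library gave 0 to 50. For the difference between clones, from 1 lower, it went to 11 with DESeq2, 7 with no expression filter, 2 with at least 10 counts in every library, 4 with the length and GC correction, 4 with that correction and the replicate block, and 0 with library totals, at 0.01, without overlapping members and without both libraries. Leaving out 1 library gave 0 to 7. For both clones, from 0 lower, it went to 14 with DESeq2, 9 with no filter and 17 for the mean of the within-clone responses, chosen after seeing the data. For clone 8 against clone 4 with vehicle, from 2 higher, it went to 15 with DESeq2, 7 with no filter, 7 with at least 10 counts, 0 at 0.01, 1 without overlapping members and 0 without both libraries. Leaving out 1 library gave 0 to 8. With 4OHT, from 0 lower, it went to 1 with DESeq2, 2 with no filter and 1 with the legacy option of edgeR off. The settings also move the share of all genes called: in clone 8, 12.2% were called lower with DESeq2 and 6.14% with no filter. Counts for the other comparisons, and those with 1 library left out, stand here without that share. They cannot be read as results about the members.

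Medians moved by more than 0.08, the SD of the members' median log2 CPM within groups, with library totals: -0.355 in clone 8, -0.297 for the difference and -0.070 for the clones with 4OHT. The median of all genes moved with them, in clone 8 to 0.191, so that members stood at -0.546 relative to it against -0.552. Without both libraries the medians were -0.371 in clone 8, -0.305 for the difference and -0.176 for both clones. Leaving out 1 library gave -0.620 to -0.415 in clone 8, -0.490 to -0.330 for the difference, -0.345 to -0.199 for both clones, 0.175 to 0.316 for the clones with vehicle and -0.235 to -0.083 with 4OHT.

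Libraries that share a replicate number deviated together only weakly (correlations from -0.030 to 0.095, the highest for vehicle and 4OHT of clone 4). Weak correlations over all genes cannot tell whether the numbers pair them. With the replicate block 44 members were called lower in clone 8, all among the 47, and no other count of members called changed. With the length and GC correction Nrf1 went from 0.094 to -0.134, and to -0.134 with the replicate block as well. The large minus small subunit median ran from -0.120 (clone 8, members above the median level) to 0.064 over all comparisons and alternatives run. The planned legacy setting of edgeR is the default of the version used. With 2 libraries a group, many changes can be missed. The simulated fit for clone 8 recovered 28 of 97 changes of 1 on the log2 scale. Those changes were set in a small random draw of tested genes of any level. Members have a median of 100 CPM against 7.63 CPM over all tested genes, so this rate does not describe them.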
